A study of Mus musculus with 33 samples.

Results

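The gRNAs described here tile DNA upstream of Nanog on mouse chromosome 6, and were chosen because the midpoint of their listed interval lies more than 2 kb upstream of the annotated 5′ end of the gene at position 122707489 (mm10). There were 1199 of them among the 3918 gRNAs of the Nanog library, and 15672 gRNAs were listed over the 4 gRNA libraries of the series, 1 for each reporter gene. They fall into 4 clusters, parted from each other by gaps of over 3 kb. The cluster named here the near area held 426 gRNAs at chr6:122701577-122705498, 1.99 to 5.91 kb upstream of the 5′ end. The 27-kb cluster held 137 gRNAs at chr6:122679587-122681078, the 37-kb cluster 231 gRNAs at chr6:122669072-122671049, and the 44-kb cluster 405 gRNAs at chr6:122661567-122664584. In a RefSeq table of gene spans for the same assembly, 0 genes overlapped any of the clusters. The nearest annotated gene to the left of the near area was the pseudogene Gm10224, which ended 2.51 kb away, and the nearest to its right was Nanog itself at chr6:122707489-122714633.

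Nanog encodes a homeobox transcription factor of pluripotent cells. Its transcription in embryonic stem cells is known to depend on its promoter and on enhancers upstream of the gene, the nearest of which is bound by Oct4 and Sox2. In a CRISPR mutation screen a gRNA directs the nuclease Cas9 to its matching site, where repair of the break leaves small insertions and deletions. If the site is needed for expression of the tagged gene, cells that received that gRNA are over-represented among cells that have lost the reporter signal.

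The study placed libraries of such gRNAs in mouse embryonic stem cells with GFP at 1 of 4 genes, and only the Nanog line is used here. Its cells make Nanog with GFP joined at the C-terminal end, and all of them carried a placeholder guide RNA at the ROSA26 locus. The populations compared were cells sorted as GFP-negative after electroporation of the gRNAs and the unsorted bulk cells, with 2 replicates each and genomic DNA as the material sequenced. All were grown in serum with LIF, a GSK-3 inhibitor and the MEK inhibitor UO126, and no time after electroporation or number of sorted cells is given in the sources used here.

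The libraries held 142821 and 196665 gRNA counts in GFP-negative replicates 1 and 2, against 69662 and 62654 in bulk replicates 1 and 2. The limit that a count of 0 allows, 3 counts, corresponds to 15.3 to 21.0 CPM (counts scaled to the library total) in the GFP-negative libraries. The 10 GFP-targeting gRNAs, whose target is the reporter itself, took 10.2% and 12.1% of counts in GFP-negative libraries, against 0.564% and 0.575% in bulk. Limits of this kind cover counting error only, and nothing in the sources says that the replicates were separate cultures, so the p-values measure the spread between these libraries. In a fit that leaves 1 library of a population, the p-values rest on the spread of the other population alone.

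The upstream gRNAs were present in all 4 libraries in large summed amounts but in few members. They summed to 49911 and 51383 counts in the GFP-negative libraries, against 20055 and 19206 in bulk. The number of upstream gRNAs with any count was 236 and 239 in GFP-negative cells, against 496 and 500 in bulk. The GFP-negative libraries thus held fewer upstream gRNAs at more than the depth of bulk. The whole library went the same way, with 820 and 817 gRNAs seen in GFP-negative cells, against 1619 and 1612 in bulk. Over all libraries 516 of the 1199 were seen (43.0%), 683 had no count anywhere, and 365 (30.4%) had counts high enough to be tested singly. Of the 516, 480 were in both bulk libraries, 143 in both GFP-negative libraries, and 155 in both bulk libraries but in neither GFP-negative library. The whole library held 437 of this last kind among its 3918 gRNAs.

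Counts in GFP-negative cells were concentrated in a handful of members. Among the 516 upstream gRNAs seen in any library, the median was 0 and 0 counts in the GFP-negative libraries, against 21 and 27 in bulk, while the highest was 5685 and 7869 counts in GFP-negative cells, against 460 and 211 in bulk. To reach 50% of all upstream counts took 8 and 7 gRNAs in the GFP-negative libraries, against 77 and 96 in bulk. The whole library was concentrated likewise, with 29 and 30 gRNAs for 50% of its counts in GFP-negative cells, against 244 and 320 in bulk. Above 10000 CPM there were 11 and 7 upstream gRNAs in the GFP-negative libraries, of which 1 was shared, against 0 and 0 in bulk. Above 1000 CPM there were 43 and 42 in GFP-negative libraries with 5 in common, against 85 and 87 in bulk with 35 in common. The dominant upstream gRNAs therefore mostly differed between the GFP-negative replicates.

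Whether an upstream gRNA was seen at all went with the length of its listed interval. Where end minus start was 21, 178 of 179 upstream gRNAs had a count (99.4%), and where it was 22, 338 of 1020 had one (33.1%). The rest of the library had the same split, with 382 of 388 (98.5%) and 767 of 2321 (33.0%). Among those seen, the median summed bulk count was 56 for the shorter intervals and 51.5 for the longer ones. The shorter intervals took 38.1% and 34.0% of upstream counts in GFP-negative cells, against 34.7% and 35.9% in bulk, so the populations overlap in this share. Coverage of each cluster is thus a sample of its designed gRNAs, and what sets the difference by length was not tested.

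As a whole the upstream gRNAs took a similar share of their library in both populations, but their clusters moved in different directions. The 1199 gRNAs took 34.9% and 26.1% of counts in GFP-negative libraries, against 28.8% and 30.7% in bulk, and the bulk values lie between the GFP-negative ones. The means were 30.5% ± 6.24 in GFP-negative cells and 29.7% ± 1.32 in bulk (SD, n = 2 each; exact permutation p = 1, two-sided). With 2 libraries against 2, the exact permutation test cannot go below p = 0.333.

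The near area took a larger share in both GFP-negative libraries than in either bulk library. Its 426 gRNAs held 19.0% and 13.7% of counts in GFP-negative cells, against 9.32% and 9.90% in bulk. The means were 16.4% ± 3.71 in GFP-negative cells and 9.61% ± 0.407 in bulk (SD, n = 2 each), a ratio of 1.70 or 0.77 on the log2 scale, with an exact permutation p = 0.333, the smallest possible. Without the leading gRNA of each GFP-negative library, the near area still held 16.3% and 10.3% in GFP-negative cells, against 9.18% and 9.72% in bulk, and the populations still did not overlap.

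The farther clusters did not share this pattern. The 44-kb cluster held 6.86% and 4.30% of counts in GFP-negative cells, against 9.50% and 10.4% in bulk, so both GFP-negative values were the lower ones (log2 of the ratio of mean shares -0.84, exact permutation p = 0.333). The 27-kb cluster held 1.02% and 2.12% in GFP-negative cells, against 3.25% and 3.65% in bulk, again without overlap (log2 -1.14, exact permutation p = 0.333). The 37-kb cluster held 8.09% and 5.99% in GFP-negative cells, against 6.71% and 6.67% in bulk, with overlapping populations (log2 0.07, exact permutation p = 1). Without the leading gRNA of each GFP-negative library, the 37-kb cluster fell to 4.11% and 1.98% in GFP-negative cells, against 6.63% and 6.42% in bulk. Its share in GFP-negative cells therefore rested on a pair of gRNAs.

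For comparison within the same libraries, the 485 gRNAs within 2 kb of the Nanog 5′ end took 18.3% and 17.3% of counts in GFP-negative cells, against 9.29% and 9.84% in bulk. The near area and these promoter gRNAs thus had like shares in bulk, and the near area was the more variable of the 2 in GFP-negative cells. The 381 gRNAs of the library that lie at distant positions on chromosome 6 took 2.88% and 4.86% in GFP-negative cells, against 13.6% and 11.3% in bulk. The 1331 gRNAs downstream of Nanog were also lower without overlap, at 23.8% and 22.4%, against 38.7% and 36.8% in bulk. The 512 gRNAs in the rest of the gene took 9.98% and 17.2% in GFP-negative cells, against 9.05% and 10.9% in bulk, with overlap. All of these are shares of a fixed total, so a larger share of one class lowers the others.

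Summing counts over tiles of 1 kb placed the upstream differences more closely. With edgeR's quasi-likelihood test over 44 features (43 tiles of the library and the GFP-targeting gRNAs summed) and Benjamini-Hochberg adjustment at 0.05, 3 of the 15 upstream tiles were higher in GFP-negative cells, where 20.9% of the 43 tiles were called, and 1 was lower, where 6.98% were called. The upstream shares of 20% and 6.67% are near these backgrounds. DESeq2 called 4 upstream tiles higher and 4 lower, where it called 32.6% and 25.6% of the tiles, and limma-voom called 2 and 1, where it called 11.6% and 6.98%. With the replicate number as a block edgeR called 3 higher and 2 lower, where 20.9% and 9.3% of the tiles were called. Of the 3 higher tiles, 2 are neighbours in the near area and 1 lies in the 37-kb cluster. Fold changes of tiles are after TMM scaling; scaling by total counts gave a median log2 change over the 44 features of -0.64, against 0.04 with TMM.

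The tile starting at 122702000, 4.49 to 5.49 kb upstream of the 5′ end, held 5.75% and 5.53% of counts in GFP-negative cells, against 2.95% and 3.26% in bulk. Both GFP-negative libraries were above both bulk libraries and close to each other, but different gRNAs led them. The gRNA at chr6:122702650-122702672 made up 32.2% of the tile in GFP-negative replicate 1. In replicate 2 that at chr6:122702568-122702590 made up 43.6%. The log2 change was 1.54 (SE 0.13, edgeR adjusted p = 0.00362), and it stayed past the threshold by total counts, with a log2 change of 0.86 (edgeR adjusted p = 0.0151). Without the leading gRNA of each GFP-negative library, the tile held 3.89% and 3.11% in GFP-negative cells, against 2.65% and 3.01% in bulk, a smaller gap without overlap.

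The tile starting at 122703000, 3.49 to 4.49 kb upstream, held 7.91% and 4.81% of counts in GFP-negative cells, against 3.18% and 3.08% in bulk. Here too both GFP-negative values were above both bulk values, with a wider spread. The log2 change was 1.70 (SE 0.28, edgeR adjusted p = 0.0163). It missed the threshold by total counts (log2 1.02, edgeR adjusted p = 0.0625), and, at about the same size as with all libraries, with limma-voom (log2 1.65, adjusted p = 0.231), without bulk replicate 1 (log2 1.59, edgeR adjusted p = 0.116) and without bulk replicate 2 (log2 1.68, edgeR adjusted p = 0.187). Without the leading gRNA of each GFP-negative library, the tile held 5.21% and 3.77% in GFP-negative cells, against 3.05% and 3.01% in bulk, and the populations still did not overlap.

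The other tiles of the near area were not called by edgeR. The tile starting at 122704000 held 1.64% and 2.90% in GFP-negative cells, against 1.72% and 1.95% in bulk, with overlap (log2 0.99, edgeR adjusted p = 0.131). With DESeq2 the tile passed (adjusted p = 0.0396). Of the other fits with all libraries, it passed only without the top gRNA of every tile, after new TMM scaling (edgeR adjusted p = 0.0229). Without the leading gRNA of each GFP-negative library, however, its share of counts was below both bulk shares in both GFP-negative libraries. The log2 change was 1.34 without GFP-negative replicate 1 and 0.39 without replicate 2. The part of the next tile that belongs to the upstream gRNAs, 50 gRNAs from 122705000 on, held 3.28% and 0.208% in GFP-negative cells, against 0.939% and 0.911% in bulk (log2 1.60, edgeR adjusted p = 0.50). Its replicates thus went opposite ways, and leaving out GFP-negative replicate 1 turned the log2 change to -1.47, while leaving out replicate 2 gave 2.37. In the tile farthest upstream in this area, starting at 122701000, the log2 change was -0.19 (edgeR adjusted p = 0.847).

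Of all upstream gRNAs, 4 had more CPM in both GFP-negative libraries than in either bulk library (0.334%), against 0.791% of the whole library, so the upstream share was below the background. That background of 31 gRNAs includes 8 GFP-targeting ones. All 4 lie in the near area, where they make up 0.939% of its 426 gRNAs, and 0 of the 773 gRNAs of the farther clusters met this condition. The gRNA at chr6:122703373-122703394, 4.11 kb upstream, had 3859 and 2034 counts in GFP-negative cells, against 89 and 46 in bulk, or 27019.8 and 10342 CPM against 1278 and 734 CPM. It was the only upstream gRNA above 10000 CPM in both GFP-negative libraries. The edgeR log2 change was 5.95 with an adjusted p = 0.403, whereas DESeq2 gave an adjusted p = 1.40e-04.

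Second in CPM was the gRNA at chr6:122702708-122702730, 4.77 kb upstream, with 15096 and 3214 CPM in GFP-negative cells, against 2211 and 1452 CPM in bulk (edgeR log2 4.05, adjusted p = 0.568; DESeq2 adjusted p = 0.0182). The gRNA at chr6:122704848-122704870, 2.63 kb upstream, had 1897 and 2553 CPM in GFP-negative cells, against 201 and 319 CPM in bulk (edgeR log2 4.85, adjusted p = 0.463; DESeq2 adjusted p = 0.0117). The last of the 4, at chr6:122704152-122704173, 3.33 kb upstream, had 1645 and 1189.8 CPM in GFP-negative cells, against 215 and 622 CPM in bulk (edgeR log2 3.52, adjusted p = 0.557; DESeq2 adjusted p = 0.0365). None of the 4, chosen for being above bulk in both GFP-negative libraries, was called by edgeR, and DESeq2 called all 4. Across the upstream gRNAs DESeq2 called 10 higher, where it called 3.57% of the library's tested gRNAs higher, 8 GFP-targeting ones included. Of the 10, 7 were among the 131 tested in the near area, 2 in the 37-kb cluster and 1 in the 44-kb cluster.

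Of 18 gRNAs that overlap these 4, only 6 had a count in any library, and 0 of the 6 were above bulk in both GFP-negative libraries. The gRNA at 122704152 had no overlapping gRNA with a count. Starting 2 bp below the gRNA at 122704848, that at chr6:122704846-122704868 had 0 and 0 counts in GFP-negative cells, against 22 and 17 in bulk. That at chr6:122704847-122704869, shifted by 1 bp, had 3 and 0 counts in GFP-negative cells, against 18 and 6 in bulk. A further overlapping gRNA, at chr6:122704827-122704849, had 76 and 385 counts in GFP-negative cells, against 69 and 73 in bulk. At nearly the same site the values thus ranged from 0 to 502 counts in GFP-negative cells. The strand of each gRNA is not listed, so overlapping intervals need not be cleaved at the same base. Next to the gRNA at 122703373, that at chr6:122703371-122703393 had 0 and 162 counts in GFP-negative cells, against 7 and 62 in bulk.

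Most of the abundant gRNAs of the near area were high in 1 GFP-negative replicate only. The 10 with the highest mean CPM in GFP-negative cells took 69.4% and 52.7% of the area's counts in GFP-negative libraries, against 13.9% and 13.5% in bulk. They were picked by these GFP-negative counts, so a larger share there than in bulk was built into the choice. Of these 10, 2 were above both bulk libraries in both GFP-negative libraries, 8 in 1 of them, and 4 had no count in the other GFP-negative library. For example, the gRNA at chr6:122702568-122702590 had 0 and 4740 counts in GFP-negative cells, against 7 and 64 in bulk. Another, at chr6:122705283-122705305, had 2978 and 0 counts in GFP-negative cells, against 22 and 19 in bulk. These opposite extremes fell in the same area and in different replicates.

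Others of the 10 were also uneven. Counts at chr6:122703492-122703514 were 2887 and 0 in GFP-negative cells, against 72 and 24 in bulk, and the gRNA at chr6:122702060-122702082 had 0 and 2886 in GFP-negative cells, against 55 and 73 in bulk. Counts at chr6:122703533-122703555 were 2731 and 146 in GFP-negative cells, against 135 and 171 in bulk. Counts at chr6:122704535-122704557 were 88 and 3544 in GFP-negative cells, against 77 and 198 in bulk. In these 2 the lower GFP-negative library, once scaled to its depth, was below both bulk libraries. Counts at chr6:122702650-122702672 were 2647 and 18 in GFP-negative cells, against 199 and 95 in bulk, and that at chr6:122702372-122702394 had 1447 and 223 in GFP-negative cells, against 93 and 55 in bulk. The edgeR adjusted p of the 10 was 0.403 to 0.602, and DESeq2 called 5 of them higher. That count too comes from gRNAs picked by their GFP-negative counts.

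Being above both bulk libraries in exactly 1 GFP-negative library was met by 81 upstream gRNAs (6.76%), against 6.61% of the whole library. They were 39 in replicate 1 and 42 in replicate 2. The near area held 46 of them (10.8% of its gRNAs), and the farther clusters 35 of 773 (4.53%). The promoter gRNAs reached 10.1% and the distant positions 2.62%. These differences between classes were not tested. Below both bulk libraries in both GFP-negative libraries were 350 upstream gRNAs (29.2%), against 27.9% of the whole library. They were 104 in the near area, 48 in the 27-kb, 73 in the 37-kb and 125 in the 44-kb cluster.

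In the 37-kb cluster the tile starting at 122670000 was called higher, and its counts came from different gRNAs in the 2 GFP-negative replicates. It held 4.78% and 4.83% of counts in GFP-negative cells, against 2.86% and 3.00% in bulk (log2 1.39, SE 0.15, edgeR adjusted p = 0.00554). One leading gRNA, at chr6:122670048-122670069, had 5685 and 0 counts in GFP-negative cells, against 53 and 60 in bulk. The other, at chr6:122670773-122670794, had 6 and 7869 counts in GFP-negative cells, against 7 and 96 in bulk. These gRNAs made up 83.3% and 82.8% of the tile in GFP-negative replicates 1 and 2. Without them the tile held 0.793% and 0.830% in GFP-negative cells, against 2.78% and 2.75% in bulk, which turns its direction. The close replicate values of the tile were thus sums of unlike parts. In a fit without the top gRNA of every tile, with TMM scaling done anew, the log2 change was 1.38 (edgeR adjusted p = 0.228). That scaling is not the one used with all gRNAs, so the size cannot be set beside the 1.39 above. Leaving out bulk replicate 2 gave a log2 change of 1.43.

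Elsewhere in the 37-kb cluster, the gRNA at chr6:122669093-122669115 had 3348 and 0 counts in GFP-negative cells, against 139 and 3 in bulk, so it too rested on 1 replicate in each population. The tile starting at 122671000, of 7 gRNAs of which 5 were seen, had 48 and 4 counts in GFP-negative cells, against 366 and 268 in bulk (log2 -4.07, edgeR adjusted p = 0.118). Both GFP-negative libraries were below both bulk libraries in this tile. With the replicate number as a block its log2 change was -4.93 and it passed (edgeR adjusted p = 0.00585). The tile also passed with DESeq2 (adjusted p = 0.00264) and with TMMwsp (edgeR adjusted p = 0.0410). It missed by total counts (edgeR adjusted p = 0.0906) and with limma-voom (adjusted p = 0.105).

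In the 44-kb cluster edgeR called no tile, and DESeq2 called the tile starting at 122661000 lower (adjusted p = 0.00527), whose edgeR log2 change was -2.08 (edgeR adjusted p = 0.131). Its most abundant gRNAs in GFP-negative cells were at chr6:122663340-122663362, with 2624 and 2 counts in GFP-negative cells against 253 and 186 in bulk, and at chr6:122664502-122664524, with 3 and 3846 counts in GFP-negative cells against 84 and 51 in bulk. Another, at chr6:122662706-122662727, had 2550 and 19 counts in GFP-negative cells, against 79 and 170 in bulk. Each was far above bulk in 1 GFP-negative replicate and below bulk in the other. Of the cluster's 405 gRNAs, 0 were above bulk in both GFP-negative libraries.

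In the 27-kb cluster the tile starting at 122681000, of 5 gRNAs of which 3 were seen, was lower in GFP-negative cells. It had 19 and 35 counts in GFP-negative cells, against 112 and 93 in bulk (log2 -2.62, edgeR adjusted p = 0.0122). All its counts in GFP-negative cells came from the gRNA at chr6:122681035-122681057, and the call was lost, at a like size, without bulk replicate 1 (log2 -2.69, edgeR adjusted p = 0.269) or without bulk replicate 2 (log2 -2.68, edgeR adjusted p = 0.186). The leading gRNA of the cluster, at chr6:122679738-122679760, had 0 and 2513 counts in GFP-negative cells, against 1 and 37 in bulk, which was 60.4% of the cluster in GFP-negative replicate 2.

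The remaining 7 upstream tiles had log2 changes of -2.08 to 0.39 (edgeR adjusted p = 0.131 to 0.973). In 12 of the 15 upstream tiles the gRNA with the most counts differed between the GFP-negative replicates.

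Tested singly, upstream gRNAs were called by edgeR in 1 direction and by DESeq2 in both. Of the 365 tested, edgeR called 0 higher, where 0% of the library's 1232 tested gRNAs were called higher, and 27 lower (7.40%), where 6.01% were called lower. At an unadjusted p under 0.05 edgeR had 0 higher and 83 lower, where 20.5% of the library's tested gRNAs were lower, and limma-voom called 0 in either direction after adjustment. DESeq2 called 82 upstream gRNAs lower, where it called 20.4% of the library's tested gRNAs lower, beside the 10 it called higher. The 27 that edgeR called lower were 14 of 131 in the near area (10.7%), 7 of 114 in the 44-kb cluster (6.14%), 4 of 81 in the 37-kb cluster (4.94%) and 2 of 39 in the 27-kb cluster (5.13%). The median log2 change of tested gRNAs was -1.11 upstream and -1.04 over the library. It was -0.28 in the near area, -1.46 in the 27-kb cluster, -1.73 in the 37-kb cluster and -1.77 in the 44-kb cluster, against 0.23 among promoter gRNAs. These medians are after TMM, and scaling by total counts gave a library median of -2.80, lower by 1.76 on the log2 scale.

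All 27 had 0 counts in both GFP-negative libraries and 15 to 39 counts summed over bulk (edgeR adjusted p = 0.0236 to 0.0491). In CPM they were at least 6.29- to 16.2-fold lower, with 3 counts per GFP-negative library as the floor. These bounds are without TMM scaling, unlike the edgeR p-values. The TMM factors were 0.552 and 0.537 for GFP-negative and 1.78 and 1.89 for bulk libraries, which would make the bounds smaller. In the near area the gRNA at chr6:122704846-122704868 had the largest bound, at least 16.2-fold lower in CPM with 22 and 17 counts in bulk (edgeR adjusted p = 0.0489). In the same area those at chr6:122702472-122702494 and chr6:122702683-122702704 had 12 and 22 and 19 and 14 bulk counts. In the 44-kb cluster those at chr6:122664175-122664197 and chr6:122664478-122664500 had 14 and 24 and 24 and 11 bulk counts. The called gRNAs were thus ones with modest counts in bulk. With 0 counts in GFP-negative cells, they passed the count filter through bulk alone, so only a lower call was possible. Without the filter edgeR called 0 of 516 lower.

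More abundant gRNAs that were also without counts in GFP-negative cells were not called by edgeR. Of 72 tested upstream gRNAs with 0 counts in both GFP-negative libraries, the 45 that edgeR did not call had 37 to 164 bulk counts, and DESeq2 called all 72 lower. All 72 passed the count filter through bulk alone, so only a lower call was possible for them. In the near area the gRNA at chr6:122704381-122704403 had 0 and 0 counts in GFP-negative cells, against 55 and 44 in bulk. In CPM without TMM scaling it was at least 41.1-fold lower (edgeR adjusted p = 0.115). Likewise the gRNA at chr6:122703460-122703482 had 0 and 0 in GFP-negative cells, against 49 and 25 in bulk. On the same unscaled basis it was at least 30.4-fold lower (edgeR adjusted p = 0.115). The edgeR calls therefore do not rank upstream gRNAs by the size of their loss. With the replicate number as a block edgeR called 0 of 365 lower, where it called 0% of the library, and without bulk replicate 1 or 2 it also called 0. Without GFP-negative replicate 1, edgeR called 116 of 439 tested upstream gRNAs lower and 32 higher, where it called 25.7% and 9.26% of the library's tested gRNAs. Without GFP-negative replicate 2 it called 74 of 439 lower and 32 higher, where it called 16.2% and 6.78%.

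Across the 365 tested upstream gRNAs the libraries of 1 replicate number were more alike than those of 1 population. On the scale of log2 of CPM plus 10, Pearson's r across gRNAs was 0.0965 between the GFP-negative libraries and 0.275 between the bulk libraries. Between GFP-negative and bulk libraries it was 0.467 within replicate 1 and 0.420 within replicate 2, and 0.195 and 0.0297 across the numbers. These are descriptions over gRNAs that share libraries, and gRNAs are not independent replicates.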

How the data were processed

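The authors deposited whole-number gRNA counts for each library, without normalization. Per the submitters' processing notes, the build is mm10. The counting program is not given in these sources, and the labels mention no molecular identifiers. Whether intervals count from 0 or 1 and which strand a gRNA reads are not stated. The placeholder guide (0.0357% and 0.0386% of counts in GFP-negative libraries, 0.633% and 0.663% in bulk) was left out, and 23 sample columns of other lines were not used.

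All gRNAs of the Nanog table were fitted together with edgeR 4.0.16 in R 4.3.3. Those kept by filterByExpr (minimum count 10), and sums over 1-kb tiles, were compared after TMM scaling by the quasi-likelihood F test with robust fitting (two-sided, Benjamini-Hochberg, 0.05). SE is the log2 change divided by the square root of F. A tile that straddled the 2-kb limit was split there. Shares were compared by exact permutation tests over libraries. Alternatives were TMMwsp, total counts, DESeq2 1.42.0, limma-voom (limma 3.58.1), other filters and tiles, a replicate block and leaving out each library.

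In the replicate block, replicate numbers were taken as pairs because the labels name the same replicate of the line for both populations. The main fits, the other alternatives and the permutation tests did not use these pairs. Deviations from population means correlated at 0.417 over 365 upstream gRNAs within a number.

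The upstream gRNAs, clusters and tests were chosen with earlier results of these data known. Named gRNAs were drawn from those called by edgeR (at most 10 with the largest change) and those above bulk in both GFP-negative libraries. From the near area they were the 10 most abundant in GFP-negative cells and the 5 most abundant in bulk without counts in GFP-negative cells. Of the called gRNAs and of those 5, only some are printed. Those named as leading a cluster or tile, or as overlapping another, were added after their values were seen.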

Additional observations from a re-analysis of the deposited data

How the results depend on the processing

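The shares of the near area, the 44-kb cluster and the 27-kb cluster kept their direction under all 8 alternatives run for each. Leaving out a library could not turn them, as GFP-negative and bulk shares did not overlap. Splitting clusters at smaller gaps left the shares unchanged. The alternatives that could have turned them were other denominators and leaving out the top gRNA of the cluster. Leaving out each library in turn, the log2 ratio of shares ranged from 0.51 to 0.98 for the near area, from -1.21 to -0.54 for the 44-kb cluster and from -1.76 to -0.71 for the 27-kb cluster. It ranged from -0.16 to 0.27 for the 37-kb cluster, which was -0.39 without its top gRNA, and from -0.19 to 0.23 for all upstream gRNAs.

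Against 0 higher and 27 lower gRNAs by edgeR, DESeq2 called 10 higher and 82 lower. limma-voom, no filter and the replicate block each called 0 lower. Leaving out 1 library gave 0 to 32 higher and 0 to 116 lower; the lone library of a population is then assumed to vary like the other population. Against 3 higher and 1 lower tile, the number lower was 2 with TMMwsp, 4 with DESeq2, 2 with the replicate block, 0 on a grid shifted by 500 bp and 2 without the top gRNA of each tile, a setting added after the data were seen. Leaving out 1 library gave 1 to 7 higher and 0 to 8 lower tiles. The replicate block left the number of tiles called higher at 3. For TMMwsp, the shifted grid, the fit without top gRNAs and the left-out libraries, no share of all tiles called is given. Tile counts under those settings therefore cannot be read as particular to the upstream tiles.

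Leaving out each library, log2 changes ranged from -0.50 to 0.023 for the tile starting at 122701000 and from -1.47 to 2.37 for that starting at 122705000. For single gRNAs they ranged from -7.96 to 8.23 at chr6:122702568-122702590, -7.28 to 7.74 at chr6:122705283-122705305, -8.52 to 6.50 at chr6:122703492-122703514, -0.061 to 4.99 at chr6:122704535-122704557, -2.75 to 4.72 at chr6:122702650-122702672 and -8.83 to 5.78 at chr6:122702060-122702082. That at chr6:122703492-122703514 was -0.59 with limma-voom, and that at chr6:122702060-122702082 was -0.28 with the replicate block. The cause was not tested. Splitting clusters at gaps of 1 kb gave the same 4 clusters, and the tile starting at 122681000 has no value without its top gRNA. In the GFP-negative libraries 3 counts are 15.3 to 21.0 CPM, and losses below this level were not detectable.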
